A study of Mus musculus with 10 samples.

Results

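Haemoglobin is the oxygen carrier of red cells. Its adult genes were counted in mouse cells sorted as meningeal lymphatic endothelial, together with genes of haem synthesis and of the red cell membrane. The 7 genes Hba-a1, Hba-a2, Hbb-bs, Hbb-bt, Alas2, Slc4a1 and Ahsp were chosen by symbol, from a list drawn up with their measured levels in these libraries known. Of these, 6 have a row among the 55401 genes of the table, and Ahsp was not analysed here. Because the levels were used for the choice, the levels and fold changes of the 6 genes are given as a description, and counts of them past a threshold support nothing. In short, 1 of the 10 libraries, SCVS replicate 5, held 92.9% of all counts on the 4 adult globin genes. Outside it, alpha globin was counted in every library, and beta globin was above 3 counts in 3 of the other 9.

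RNA was measured in cells sorted as CD45-CD31+PDPN+ from the dura mater of 3 month old female wild-type C57BL/6 mice after perfusion with saline, with 5 libraries of a naive group and 5 of a group that went through 6 days of sub-chronic variable stress (SCVS), in which foot shock, tail suspension and restraint alternate. Each library was made from cells pooled from 3 to 4 animals and amplified with a whole-transcriptome kit, so a library stands for a pool and not for 1 mouse. The comparison asks how stress alters the RNA of these cells. The column totals lay between 9984743 and 14094155 counts, and the floor of detection, set at 3 counts, equals 0.213 to 0.3005 CPM (a count divided by its column total and multiplied by 1000000).

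Haemoglobin is assembled from alpha and beta chains, each of which binds a haem group. Red cell precursors make both chains in balance, under the control of factors such as Gata1 and Klf1, and load them with haem whose synthesis in these cells starts with Alas2. Red cells lose their nucleus while they mature, and young ones still carry globin RNA in the blood. Alpha globin has also been described in the endothelium of small arteries, where it binds nitric oxide.

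Several libraries stood apart before any globin was considered. Naive replicate 5 had 287 counts on Pecam1 (CD31) and 1 on Lyve1, whereas the other 9 libraries had at least 5870 on Pecam1, and it held 198994 counts on the carbonic anhydrase Car2. It nevertheless had 843 counts on Prox1, the lymphatic master regulator, and 351 on Pdpn, a marker of the sorting gate. Naive replicate 1 had 2 counts on Lyve1 and 0 on both Prox1 and Pdpn. SCVS replicate 4 had the highest summed level of 8 leukocyte and macrophage markers, 5262 CPM, against 15.4 to 835 CPM in the other libraries. The globin results that rest on SCVS replicate 5 are given with and without it.

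The alpha pair lies on chromosome 11 of GRCm38.p6, Hba-a1 (ENSMUSG00000069919) at 32283672 to 32284486 and Hba-a2 (ENSMUSG00000069917) at 32296492 to 32297310. The beta pair lies on chromosome 7, Hbb-bs (ENSMUSG00000052305) at 103826523 to 103827928 and Hbb-bt (ENSMUSG00000073940) at 103812524 to 103813923. Within each pair the genes are close copies, so reads can be split between them with uncertainty. The coding sequences of Hba-a1 and Hba-a2, 429 bases each in the GENCODE M1 transcripts, differed at 1 base, C381T, and those of Hbb-bs and Hbb-bt, 444 bases each, at 1 base, C417T. Positions are counted from the start codon, and the gene named earlier is given as the reference. The stretches below, from base 356 to 406 of the alpha and 392 to 442 of the beta coding sequence, show the single coding base that tells each pair apart, in capitals.
Hba-a1: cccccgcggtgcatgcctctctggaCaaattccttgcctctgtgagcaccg
Hba-a2: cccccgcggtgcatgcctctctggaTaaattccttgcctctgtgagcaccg
Hbb-bs: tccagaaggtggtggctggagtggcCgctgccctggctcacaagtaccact
Hbb-bt: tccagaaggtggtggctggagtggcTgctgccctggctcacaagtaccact
Of the 150-base windows of the transcripts, the read length of the study, 266 were shared by the alpha pair, 48.4% of those of Hba-a1 and 65.7% of those of Hba-a2. In the beta pair 281 were shared, 44.7% of those of Hbb-bs and 50.7% of those of Hbb-bt. How reads that match both copies were counted is not given in the sources used here, so the sum over a pair is the firmer value, and the sum of alpha and the sum of beta are used below.

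The 250 bases before the start of 3 of these genes are printed because alpha and beta counts moved apart between libraries. They are taken from RefSeq, GRCm38.p6, in which 5 of the 6 genes matched, and run 5′ to 3′ along the gene. Capitals mark 4 motifs searched on both strands. These were the TATA-type box with the letters ATATAA, the CCAAT box with those letters, the Gata motif with the letters GATAAG and the motif with the letters CCACCC, 1 form of the sites that Klf factors bind.
Hba-a1, chr11:32283422-32283671, plus strand: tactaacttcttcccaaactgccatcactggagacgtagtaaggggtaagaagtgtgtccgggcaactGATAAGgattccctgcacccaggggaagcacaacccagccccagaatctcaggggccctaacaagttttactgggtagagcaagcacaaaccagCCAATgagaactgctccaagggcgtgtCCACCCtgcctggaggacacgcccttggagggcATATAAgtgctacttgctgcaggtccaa
Hbb-bs, chr7:103827929-103828178, minus strand: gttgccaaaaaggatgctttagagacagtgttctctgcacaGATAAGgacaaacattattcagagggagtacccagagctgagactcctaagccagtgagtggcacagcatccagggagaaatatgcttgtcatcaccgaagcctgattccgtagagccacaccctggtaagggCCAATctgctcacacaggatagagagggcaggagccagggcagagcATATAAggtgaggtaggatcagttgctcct
Hbb-bt, chr7:103813924-103814173, minus strand: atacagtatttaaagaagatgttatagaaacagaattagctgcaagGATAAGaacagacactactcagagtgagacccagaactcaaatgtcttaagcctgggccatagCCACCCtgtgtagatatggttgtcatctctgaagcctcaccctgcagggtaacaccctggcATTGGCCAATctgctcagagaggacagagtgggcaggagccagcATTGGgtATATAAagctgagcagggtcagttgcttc
The TATA-type box, the CCAAT box and the Gata motif were found in all 3, and the letters CCACCC in Hba-a1 and Hbb-bt. These letters are not in the Hbb-bs window, and other forms of Klf sites were not searched. In Hbb-bt, 2 of the 3 matches to the CCAAT box lie on the other strand, and 1 of those adjoins the forward match. Over the same 250 bases of all 32851 promoters in the table, the TATA-type box was present in 9.10%, the CCAAT box in 33.9%, the Gata motif in 6.55% and CCACCC in 28.1%. The upstream stretch of Hba-a2 matched that of Hba-a1 at 247 of 247 bases when shifted by 3 bases. For the beta pair no shift was tried, and 51 of 250 bases matched at equal distance from the start. The TATA-type box begins 30 bases before the start in Hbb-bs and 29 in Hbb-bt, so these stretches were out of step. The 2 values are therefore not comparable, and the likeness of the beta stretches was not measured. In the stretch before Alas2, which is not printed, CCACCC was found 3 times, each on the other strand, and the other motifs were not found. A match is a description of letters and not of a bound site.

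Hba-a1, an alpha chain gene, was the gene of the 6 with the broadest counts, above 3 counts in 10 of 10 libraries. Libraries are numbered by replicate. The counts of Hba-a1 in naive libraries 1 to 5 were 41, 347, 129, 59 and 430. In SCVS libraries 1 to 5 they were 1745, 342, 137, 4 and 24839. The groups overlapped: the lowest value of all 10 libraries was that of SCVS replicate 4, and SCVS replicates 2 and 3 lay within the naive range in CPM. In SCVS replicate 5 the gene ranked 25 of 55401 by count, against ranks of 1677 to 13297 in the other libraries. The mean level was 15.4 ± 13.4 CPM in naive and 530 ± 1095 CPM in SCVS libraries (SD, n = 5), and 40.8 ± 56.5 CPM in SCVS (SD, n = 4) without replicate 5. The median was 9.23 CPM in naive and 28.1 CPM in SCVS libraries.

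Hba-a2, the other adult alpha gene, was counted at a far lower level. Its counts were 3, 17, 0, 0 and 19 in naive libraries 1 to 5, and 22, 7, 11, 11 and 3597 in SCVS libraries 1 to 5. All 5 SCVS libraries, but only 2 of the 5 naive ones, were above 3 counts, and the groups overlapped. SCVS replicate 5 held 97.6% of all its counts. Per length of the transcript model, the median level in SCVS libraries was 1.61 CPM per kb for Hba-a2 and 40.2 CPM per kb for Hba-a1. In 8 of the 9 libraries with more than 15 alpha counts, Hba-a1 took 92.6% to 100% of them, and in SCVS replicate 5 it took 87.4% (95% exact binomial interval 87.0 to 87.7%). In SCVS replicate 4 it took 4 of 15 alpha counts, 26.7% (7.79 to 55.1%). These intervals cover counting error only, since amplified reads without molecular identifiers are not independent molecules.

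**Figure D1:**
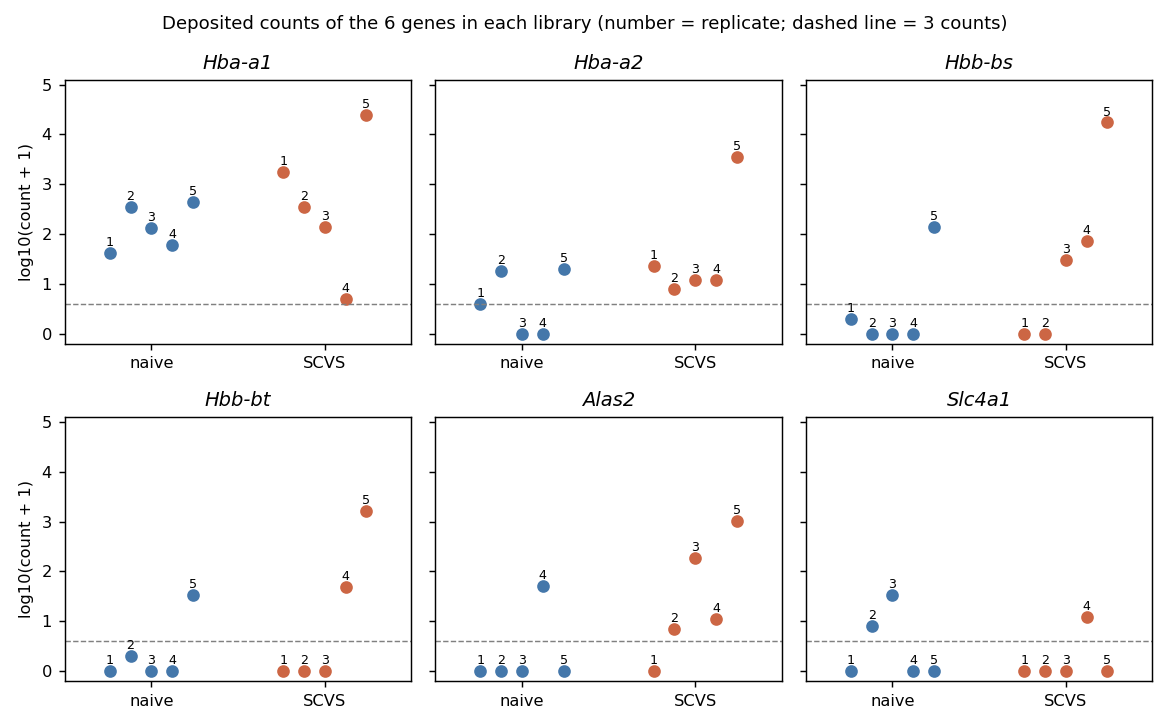
Counts of the 6 genes in each library on a log10(count + 1) axis, naive on the left and SCVS on the right of each panel, with the replicate number above each point and a dashed line at 3 counts. Hba-a1 lies above the line in 10 of 10 libraries, and SCVS replicate 5 is the highest point in each panel but that of Slc4a1, where it has 0 counts.

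The beta chain gene Hbb-bs had 1, 0, 0, 0 and 140 counts in naive libraries 1 to 5. In SCVS libraries 1 to 5 it had 0, 0, 29, 71 and 17435. The naive counts came almost entirely from replicate 5, the library with few endothelial counts, and 2 SCVS libraries had none. A count of 0 allows up to 3 counts, or 0.213 CPM in SCVS replicate 1. The mean was 2.12 ± 4.69 CPM in naive and 351 ± 780 CPM in SCVS libraries (SD, n = 5). Without SCVS replicate 5, the SCVS mean of 1.93 ± 2.54 CPM (SD, n = 4) lay below the naive mean.

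Hbb-bt, the second adult beta gene, was above 3 counts in 3 libraries, which are also those with the 3 highest counts on Hbb-bs. It had 0, 1, 0, 0 and 33 counts in naive libraries 1 to 5, and 0, 0, 0, 48 and 1668 in SCVS libraries 1 to 5. The groups overlapped, since 3 SCVS libraries and 3 naive ones were at 0. The share of Hbb-bs among beta counts was 80.9% in naive replicate 5, 59.7% in SCVS replicate 4 and 91.3% in SCVS replicate 5. SCVS replicate 3 had 29 counts on Hbb-bs and 0 on Hbb-bt.

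Together, the 4 adult globin genes took 0.476% of all counts in SCVS replicate 5 (95% exact binomial interval 0.472 to 0.4804%), or 4761 CPM. The other 9 libraries lay between 4.32 and 125 CPM, and SCVS replicate 5 was 38.0-fold above the highest of them and 332-fold above their median. Naive replicates 1 to 5 had sums of 4.32, 28.6, 9.23, 4.35 and 46.7 CPM. SCVS libraries 1 to 4 had sums of 125, 28.7, 14.4 and 10.1 CPM. The group means were 18.6 ± 18.6 CPM in naive and 988 ± 2110 CPM in SCVS libraries (SD, n = 5), a ratio of 53.0. Without SCVS replicate 5 the SCVS mean was 44.6 ± 54.4 CPM (SD, n = 4), a ratio of 2.40, and the ratio of the medians of all libraries was 3.11. In bulk samples of this kind, fewer cells of a type and less RNA per cell cannot be told apart.

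The chains were not counted in 1 ratio over the libraries. Alpha globin made up 97.8% of the 45 globin counts in naive replicate 1, 99.7% of 365 in naive replicate 2 and 100% of 129 and of 59 in naive replicates 3 and 4. It made up 100% of 1767 in SCVS replicate 1 (95% exact binomial interval 99.8 to 100%) and 100% of 349 in SCVS replicate 2. In these 6 libraries the beta pair had 0 or 1 count in all. The share was 83.6% of 177 in SCVS replicate 3 (77.3 to 88.7%), 72.2% of 622 in naive replicate 5 (68.5 to 75.7%) and 59.8% of 47539 in SCVS replicate 5 (59.4 to 60.3%). In SCVS replicate 4 it was 11.2% of 134 (6.40 to 17.8%), the only library with more beta than alpha counts. The intervals cover counting error on amplified reads and not the spread between pools. The group means were 93.9 ± 12.2% in naive and 70.9 ± 37.2% in SCVS libraries (SD, n = 5), and their ranges, 72.2 to 100% and 11.2 to 100%, overlapped.

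**Figure D2:**
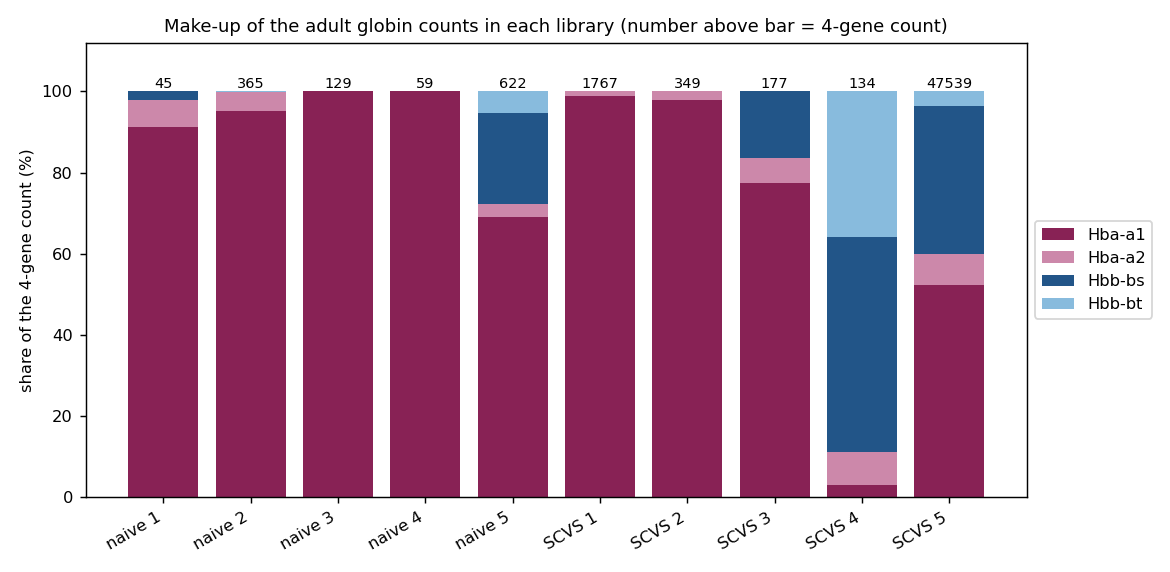
Share of each adult globin gene in the 4-gene count of each library, in percent, as stacked bars, with the 4-gene count above each bar. The alpha genes (dark and light red) fill 97.8% or more of 6 bars, whereas the beta genes (dark and light blue) make up most of the bar of SCVS replicate 4 and part of those of naive replicate 5 and SCVS replicates 3 and 5.

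Alas2 (ENSMUSG00000025270, chromosome X, 150547417 to 150570622) encodes the erythroid form of the enzyme that starts haem synthesis. It had 51 counts in naive replicate 4 and 0 in the other 4 naive libraries. In SCVS libraries 1 to 5 it had 0, 6, 189, 10 and 1015 counts. It was thus above 3 counts in 4 of 5 SCVS libraries and 1 of 5 naive ones, and the groups overlapped at 0. The mean was 0.752 ± 1.68 CPM in naive and 23.6 ± 44.1 CPM in SCVS libraries (SD, n = 5), and 4.15 ± 7.47 CPM in SCVS (SD, n = 4) without replicate 5. SCVS replicate 5 held 79.9% of its counts, less than its 88.5% to 98.6% of the counts of each adult globin gene. In naive replicate 4, which had 51 counts on Alas2, no beta globin was counted, and in naive replicate 5, which had 173 beta counts, no Alas2 was counted.

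Slc4a1 (ENSMUSG00000006574, chromosome 11, 102348820 to 102365281) encodes the anion exchanger of the red cell membrane. It had 0, 7, 32, 0 and 0 counts in naive libraries 1 to 5 and 0, 0, 0, 11 and 0 in SCVS libraries 1 to 5. Alone among the 6 genes it had 0 counts in SCVS replicate 5, where 3 counts would be 0.3005 CPM. The mean was 0.568 ± 0.992 CPM in naive and 0.166 ± 0.372 CPM in SCVS libraries (SD, n = 5).

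The number of the 6 genes above 3 counts was 1, 3, 2, 2 and 4 in naive libraries 1 to 5, and 2, 3, 4, 6 and 5 in SCVS libraries 1 to 5. SCVS replicate 4 was the only library with all 6 above 3 counts, at a globin sum of 10.1 CPM. Over the 10 libraries, log2(CPM + 1) of Hbb-bs and Hbb-bt had a Pearson r of 0.98, and of 0.87 over the 9 libraries without SCVS replicate 5. For Hba-a1 and Hba-a2, r was 0.84 over 10 and 0.55 over 9 libraries. For Hba-a1 and Hbb-bs it was 0.68 over 10 and -0.23 over 9. For Alas2 and Hbb-bs it was 0.78 and 0.15, and for Slc4a1 and Hbb-bs -0.21 and -0.083. These values describe libraries whose genes share 1 depth, and the value for Hba-a2 and Hbb-bs was 0.94 over 10 and 0.43 over 9.

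In the fit of SCVS against naive over all 14815 genes that exceeded 5 counts in 3 or more libraries, all 6 genes were among those tested, Hbb-bt and Slc4a1 with exactly 3 such libraries each. The fitted log2 fold changes (± SE) were 5.11 ± 1.82 for Hba-a1, 6.89 ± 2.41 for Hba-a2, 7.35 ± 3.11 for Hbb-bs and 6.02 ± 3.07 for Hbb-bt. They were 5.01 ± 2.76 for Alas2 and -1.71 ± 2.03 for Slc4a1. The median of the 6 was 5.57, beside -0.030 over all genes tested. With SCVS replicate 5 left out, the values were 1.35 ± 1.33 for Hba-a1, 0.63 ± 1.47 for Hba-a2, -0.13 ± 2.55 for Hbb-bs, 2.52 ± 2.52 for Alas2 and -1.43 ± 2.14 for Slc4a1, with a median of 0.63, and Hbb-bt no longer passed the filter. By the quasi-likelihood test of edgeR, the adjusted p was under 0.1 for none of the 6 and for none of the 14815 genes (0%). At an unadjusted p under 0.05, 3 of the 6 were counted, all higher in SCVS, beside 3.1% of all genes in either direction and 1.93% higher in SCVS. These counts are what the choice of genes would give, and nothing is read from them. With DESeq2, 0.814% of the genes with an adjusted p were under 0.1, and the 2 of the 6 genes that had one were not among them. With limma and voom, 0.0135% of genes were under 0.1, again none of the 6. The groups overlapped in CPM for each of the 6 genes, whereas they did not overlap for 0.628% of all genes tested.

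**Figure D3:**
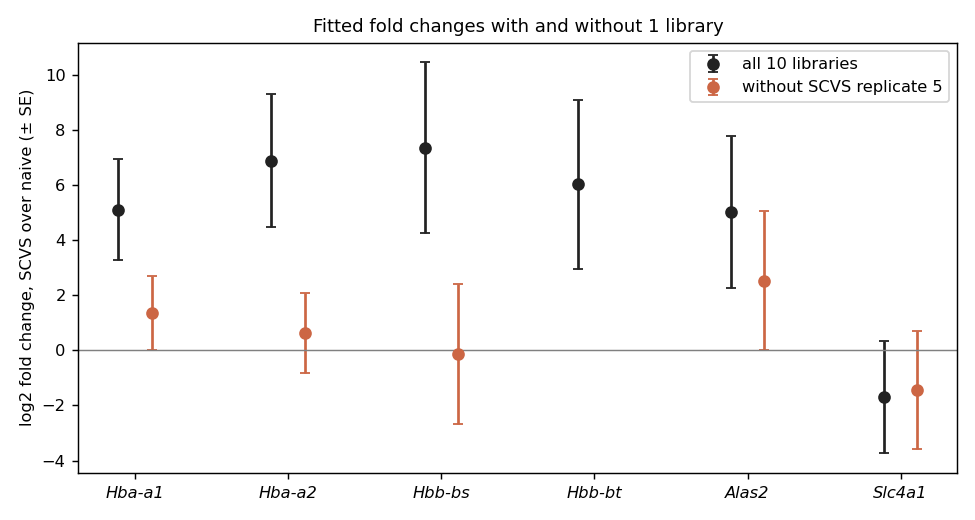
Fitted log2 fold change of each gene, SCVS over naive, with bars of 1 SE, over all 10 libraries (black) and with SCVS replicate 5 left out (orange). The 4 globin values lie at 5.11 to 7.35 with all libraries, and the 3 that could still be fitted lie at -0.13 to 1.35 without that library.

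The embryonic and minor globins showed another pattern than the adult ones. Hbb-y, the embryonic beta-like gene, had 105, 152 and 121 counts in naive replicates 2, 3 and 4, 216 in SCVS replicate 4, and 0 in the other 6 libraries, among them SCVS replicate 5. Its log2 fold change was -0.74 ± 2.57 (SE, adjusted p = 1.00 by edgeR), and without SCVS replicate 4, its only SCVS library with counts, no fold is given. Hbq1a, a theta-like alpha gene, had 111 counts in naive replicate 1 and 0 elsewhere, and Hbq1b had 2 counts in SCVS replicate 1. Hba-x, Hbb-bh1, Hbb-bh2 and Hbb-bh0 had 0 counts in all 10 libraries. Of the globins of other tissues, Cygb had 403 counts in naive replicate 4 and at most 83 elsewhere, with a log2 fold change of -1.40 ± 2.57 (adjusted p = 1.00 in edgeR's test). Mb had 140 counts in naive replicate 5, 84 in naive replicate 4 and at most 2 elsewhere, and Ngb had 26 counts in naive replicate 4 alone.

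The other red cell genes were read from 5 lists with 63 genes in the table, of which 41 were tested. None passed an adjusted p of 0.1 in edgeR's test, 1 had an unadjusted p under 0.05, and none was called by DESeq2 or by limma with voom. Of the 41, 22 were higher and 19 lower in SCVS, with a median log2 fold change of 0.15 beside -0.030 over all genes. The median was -0.015 over 8 genes of the membrane and skeleton, 0.063 over 12 of haem synthesis and iron import, 0.81 over 8 transcription factors and 0.16 over 12 other red cell genes. The single gene with an unadjusted p under 0.05 was Car2, the widely expressed carbonic anhydrase, with a log2 fold change of -3.45 ± 1.39 (SE, adjusted p = 1.00 in edgeR's test). Its 198994 counts in naive replicate 5 exceeded the 839 to 5457 of the other libraries, and without that library its log2 fold change was 0.70.

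Within the membrane list, the 3 most abundant genes were the water channel Aqp1, the skeleton protein gene Dmtn and the glycophorin gene Gypc. Aqp1 had 77 to 5093 counts in naive and 706 to 7384 in SCVS libraries. Dmtn had 101 to 1019 and 434 to 1373. Gypc was at 0 in naive replicate 5 and in SCVS replicate 5, and the other 8 libraries had 52 to 1340 counts. These genes are also active outside red cells, and their log2 fold changes were 0.65 ± 0.87, 0.25 ± 0.62 and -0.28 ± 1.66 (SE). Among haem enzymes, Alas1, the form of all tissues, had 865 to 4024 counts, Fech, which inserts the iron, had 704 to 2218, and Alad had 577 to 1878. Their log2 fold changes were -0.042 ± 0.37, 0.33 ± 0.35 and -0.020 ± 0.46 (SE). Each of these 3 enzymes was counted in every library, while Alas2 was at 0 in 5 of them, Uros in 2 and Ppox in 1. Among the factors, Lmo2 had 875 to 6993 counts, with a log2 fold change of 0.73 ± 0.47, Ldb1 had 6 to 496, with -1.003 ± 1.12, and Bcl11a, which represses embryonic globins, had 0 to 1526, with -1.26 ± 2.20 (SE). Among the other red cell genes, the peroxiredoxin gene Prdx2 and the mitophagy receptor gene Bnip3l followed Car2 in level. Prdx2 had 1798 to 7359 counts and Bnip3l 2341 to 3878, with log2 fold changes of 0.049 ± 0.42 and -0.033 ± 0.26 (SE).

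SCVS replicate 5, the library with the high globin counts, held some further red cell genes and lacked others. The genes named here were picked after their values were seen. Tspo2, an erythroid gene of the mitochondrial translocator family, had 66 counts there and 0 in the other 9 libraries. Tent5c had 254 there and at most 16 elsewhere. Of the 63 genes of the red cell lists, 2 were above 3 counts in SCVS replicate 5 alone, beside 1.52% of all 55401 genes. On the other hand, Slc4a1, Hbb-y, Klf1, Gypc, Epb42, Ank1, Rhag and Slc25a37 were among those with 0 counts there. Most of these were counted in few libraries at all. Gypc and Slc25a37 were above 3 counts in 8 libraries each, Ank1 in 5, Hbb-y in 4 and Slc4a1 in 3. Klf1 was so in 2, and Epb42 and Rhag in 1 each. Car1, Hemgn, Icam4 and Cldn13 had 0 in all 10 libraries. Gata1 had 213 counts there, 265 in SCVS replicate 2, 99 in naive replicate 2 and at most 31 in the others. Of the 41 tested red cell genes, 6 had their highest CPM in SCVS replicate 5, 9 in naive replicate 5 and 7 each in SCVS replicates 2 and 4. Over all genes tested, 7.91% had their highest value in SCVS replicate 5, and 14.7% in naive replicate 5.

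**Figure D4:**
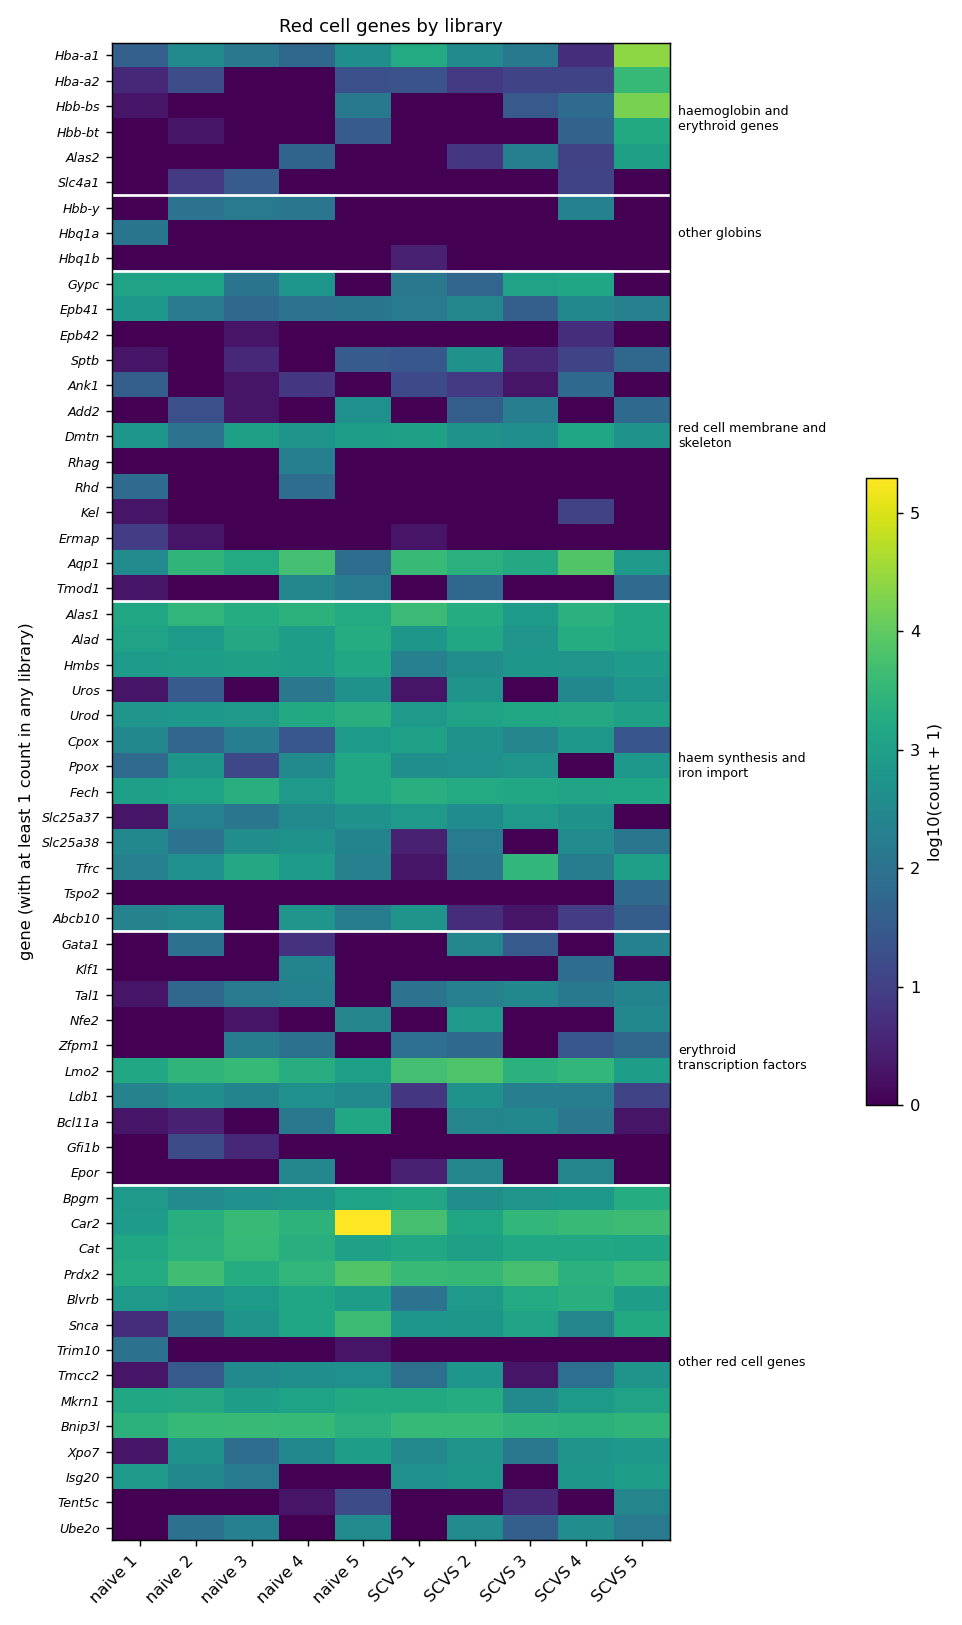
Counts of red cell genes (rows, in lists separated by white lines) in the 10 libraries (columns), coloured by log10(count + 1), for genes with at least 1 count in any library, some genes of the lists not being shown. The adult globins, Alas2 and Tspo2 are brightest in SCVS replicate 5, whereas Slc4a1, Gypc and Hbb-y have 0 counts there and the haem enzymes Alas1, Alad and Fech are bright in all 10 columns.

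Markers of other cells were read beside these values. The leukocyte gene Ptprc, which encodes the CD45 that the gate excludes, was at 0 or 1 count in 7 libraries and at 27, 113 and 404 counts in SCVS replicates 1, 4 and 5. The gene was picked after its values were seen. Its adjusted p was 0.971 by edgeR and 0.0801, under the threshold of 0.1, by DESeq2. With every naive library at 0 or 1 count no fold is given, and without SCVS replicate 5 the gene no longer passed the filter. The 8 leukocyte and macrophage markers together had 316 CPM in SCVS replicate 5, within the range of 133 to 5262 CPM of SCVS libraries and of 15.4 to 633 CPM of naive ones, with 1 of 8 at 0. In edgeR's fit 8 of 8 were higher in SCVS, and none of these markers was called. The most abundant of them, Lyz2, C1qb and C1qa, had 1568, 671 and 195 counts there, against 41004, 14310 and 6779 in SCVS replicate 4. The 9 lymphatic markers had a sum of 471 CPM in SCVS replicate 5, the lowest of the SCVS libraries, whose highest was 3243 CPM, and naive libraries had 74.4 to 2929 CPM. Mmrn1, Lyve1 and Reln, the most abundant of these, had 1932, 971 and 595 counts there. The 8 pan-endothelial markers, with Egfl7, Kdr and Esam as the most abundant, had 3353 CPM there, between the 2940 and 6980 CPM that bound the SCVS libraries. The part of other cells in the globin counts was not tested.

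In edgeR's test, the remaining cell type lists gave no call. The blood endothelial list had Plvap, Ly6c1 and Flt1 as the most abundant. Its sum was 313 to 10273 CPM in naive and 5219 to 9324 CPM in SCVS libraries, and 0 of 8 genes were called. In every library this sum exceeded that of the lymphatic markers. The values were 313 against 196 CPM in naive replicate 5 and 7854 against 74.4 CPM in naive replicate 1. In SCVS replicate 5 they were 5219 against 471 CPM. The lists hold different genes, so these sums do not compare numbers of cells. The platelet list (Ppbp, Pf4 and Itga2b) had 0.075 to 328 CPM in naive and 95.3 to 605 CPM in SCVS libraries, with 6 of 6 tested genes higher in SCVS and none called. The neutrophil list (Ltf, Ngp and S100a8) had 0 to 28.7 and 0.164 to 285 CPM, with 2 genes tested, and in the B and T cell list the 1 gene tested, Cd79a, was not called. In the mural and fibroblast list (Rgs5, Dcn and Acta2), 7 of 8 genes were lower in SCVS. Acta2, of smooth muscle, had a log2 fold change of -4.04 ± 1.41 (SE) and an adjusted p of 0.964 by edgeR, and it was called by DESeq2 at an adjusted p of 0.06. Without naive replicate 1 its log2 fold change was -2.45 by edgeR, and Dcn had 11569 counts in SCVS replicate 5, its highest. Over all 14815 genes, 460 had an unadjusted p under 0.05 in edgeR's test, DESeq2 called 114 and limma with voom called 2.

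Genes that clear haemoglobin, break down haem or store its iron did not pass the adjusted threshold. The iron storage genes Fth1 and Ftl1 had 30535 to 59448 and 12336 to 25115 counts over the 10 libraries, with log2 fold changes of -0.15 ± 0.24 and 0.11 ± 0.21 (SE). The haem transporter gene Slc48a1 had 168 to 2384 counts, with a log2 fold change of -0.75 ± 0.67 (SE). Hmox2, the constitutive haem oxygenase, was the only one of the 10 tested genes of this list with an unadjusted p under 0.05, at a log2 fold change of 1.00 ± 0.41 (SE, adjusted p = 1.00 in edgeR's test). Its counts were 594, 497, 884, 1088 and 541 in naive and 1010, 1875, 761, 2183 and 1262 in SCVS libraries 1 to 5, and the groups overlapped. The median over this list was 0.12, with 6 genes higher and 4 lower. A further list was drawn up as neighbours of the alpha globin cluster. Their positions were not looked up here, and not all of them need flank it in the mouse. Of this list 5 genes were tested, 3 of them higher and 2 lower, with a median of 0.62. In SCVS replicate 5, Luc7l, Snrnp25 and Rhbdf1, the most abundant of these, had 791, 677 and 140 counts, against 501 to 1492, 1 to 425 and 0 to 686 in the other libraries.

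The 10 genes whose log2(CPM + 1) followed the globin sum most closely over the 10 libraries had Pearson r of 0.91 to 0.93. They were Fcrl5, Lrit1, Stkld1, Gm44986, Csf2rb2, Cxcr4, Tsix, Mirt1, Gm15536 and Arntl2. Fcrl5 had 155 of its counts in SCVS replicate 5, 12 and 11 in SCVS replicates 1 and 2, and at most 1 elsewhere. Cxcr4, a chemokine receptor, had 241 counts in SCVS replicate 5, and Csf2rb2, a cytokine receptor subunit, had 293. SCVS replicate 5 held 41.3% to 95.6% of the counts of these 10 genes, and over the other 9 libraries their r was 0.51 to 0.75. None of these 10 genes was on a red cell list. Only genes past the count filter were compared. Red cell genes counted in too few libraries, among them Tspo2 and Tent5c, could therefore not appear here. Over the 41 tested red cell genes the median r was 0.18, beside a median of 0.016 over all 14809 other genes tested. The highest of the 41, 0.76, was that of Bpgm, an enzyme that makes the red cell's regulator of oxygen release. Without SCVS replicate 5 these medians were 0.080 and 0.011. The r of Bpgm was then 0.39, below that of Fech at 0.59.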

How the data were processed

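RNA of cells sorted as meningeal lymphatic endothelial was read as paired ends of 150 bases. The deposited values are raw counts per gene, made by the authors without normalization or a filter. The submitters' processing notes name cutadapt 1.9.1, HISAT2 2.0.1, HTSeq 0.6.1 and DESeq2 with GRCm38, whereas the paper's methods name mm9, and the annotation and the use of strand are not given in the sources used here. Coordinates are those of RefSeq on GRCm38.p6. Transcripts were taken from GENCODE M1 (mm9) by Ensembl identifier, for sequence and length only.

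CPM were computed from column totals (9984743 to 14094155 counts), and CPM per kb from transcript length. Genes that exceeded 5 counts in 3 or more of the 10 libraries were tested, SCVS against naive, with edgeR 4.0.16 (TMM, quasi-likelihood test) in R 4.3.3 and Benjamini-Hochberg adjustment at 0.1. DESeq2 1.42.0, limma 3.58.1 with voom, other scalings and filters, a replicate block and leaving out each library were alternatives. The fits were checked on simulated counts with far less spread than these libraries, whose common coefficient of variation in edgeR was 1.59. How the fits perform at this spread was not checked. Each SE of a fold change is approximate, the absolute log2 fold change divided by the square root of the F statistic of edgeR's test. Shares carry exact (Clopper-Pearson) intervals. P-values measure the spread between pools of animals. Python 3.11.15 with SciPy 1.17.1 was used for levels.

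The 7 genes and all lists were chosen with earlier results of these data known. The genes named are these 7, every other globin with a row, the 3 most abundant genes of each further list, the red cell and haem clearance genes with an unadjusted p under 0.05, and the 10 genes most like the globin sum. Markers of the sorting gate and genes described as picked after their values were seen were added. Tent5c was listed under an older symbol. Some genes of these lists are not reported here.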

Additional observations from a re-analysis of the deposited data

Results flagged for a closer look

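Within each group of 5 libraries, the highest or lowest value was set against the others by Dixon's ratio of its gap to the range, with a limit of 0.71. Chance alone passes this limit in about 1 of 20 groups, and 18 groups were screened. Since the genes were chosen with these values known, the number that passed is not set against that rate. SCVS replicate 5 stood apart for Hba-a1 (2488 CPM, next 124), Hba-a2 (360.2 CPM, next 1.56), Hbb-bs (1746 CPM, next 5.37), Hbb-bt (167 CPM, next 3.63) and Alas2 (102 CPM, next 15.3). It did so for the sum of the 4 globins (4761 CPM, next 125), of the alpha genes (2848 CPM, next 125) and of the beta genes (1913 CPM, next 8.99).

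Naive replicate 5 stood apart for Hbb-bs (10.5 CPM, next 0.096), Hbb-bt (2.48 CPM, next 0.078) and the beta sum (13.0 CPM, next 0.096). Naive replicate 4 did so for Alas2 (3.76 CPM, next 0), naive replicate 3 for Slc4a1 (2.29 CPM, next 0.548) and SCVS replicate 4 for Slc4a1 (0.831 CPM, next 0). With values at or near 0 in most libraries of a group, a single library with counts passes this limit by construction.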

How the results depend on the processing

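No setting called any of the 6 genes or any other red cell gene. Over the whole table, DESeq2 called 114 genes and limma with voom 2, and each of the other fits called 0. Same-numbered libraries had deviations with an r of -0.017 to 0.15, and 4 of 5 numbers matched their own number best, as a hint from the data. Since 4 of these r were under 0.1 and the labels give the numbers no meaning, the main fit did not use them. Whether same-numbered libraries share a batch is not given in the sources used here. With the number as a replicate block 0 genes of the table were called, 0 of the 6 and 0 other red cell genes, and Bcl11a turned to 0.82 (log2). The fitted log2 fold change of Hba-a1, 5.11, was 1.39 with the replicate block and 1.21 with voom, and that of Hba-a2, 6.89, was 4.19 and 3.51.

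The difference in the mean globin sum (SCVS minus naive) was 969 CPM. It was 26.0 to 1214 CPM with each library left out, lowest without SCVS replicate 5, and 19.4 CPM between medians, a choice made after seeing the data. Hbb-bs turned with libraries left out, at -0.13 to 13.5 (log2) and -0.19 to 436 CPM, and Slc4a1 did at -0.57 to 0.029 CPM. The 13.5 was that without naive replicate 5, where naive libraries 1 to 4 held 1, 0, 0 and 0 counts on Hbb-bs. It is therefore not a measured fold. The difference in the alpha share lay between -30.3 and -8.08 percentage points. Among red cell genes, leaving out libraries gave log2 values of -0.044 to 0.44 for Dmtn, -0.92 to 0.22 for Gypc, -0.32 to 0.15 for Alas1 and -0.20 to 0.17 for Alad. It gave -1.85 to 2.12 for Bcl11a, -3.77 to 0.70 for Car2, -0.13 to 0.44 for Prdx2 and -0.12 to 0.041 for Bnip3l. With column totals alone, Alas1 was at 0.0030, Alad at 0.037 and Bnip3l at 0.015, and with voom Bcl11a was at 0.87. With naive libraries 1 and 5 left out, also added after seeing the data, Aqp1 was at -0.0023, Alad at 0.30, Bcl11a at 1.72 and Car2 at 0.47. The cause was not tested.

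Of the 10 genes most like the globin sum, 6 were shared with a pseudocount of 0.1, 0 with Spearman's rho, 1 with the beta genes alone and 0 to 9 with a library left out (0 without SCVS replicate 5). Counts of 0 to 3 set the limit for beta globin, Alas2 and Slc4a1 in most libraries.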
